A study of Mus musculus with 6 samples.

Results

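The genes described here are 57 transcription factor genes of homeobox and Pax families outside the Hox clusters, called homeobox genes below. They are members of the Pax, Lhx, Lmx, Nkx, Dlx, sine oculis (Six2, Six3 and Six6), Irx, Msx, Evx, En and Gbx families. The others belong to the Otx, Emx, Isl, Pitx, Phox2, Barhl, Hmx, Vax, Gsc, Gsx and Tlx families. All were chosen by symbol as developmental regulators known as Polycomb targets, and all 57 were found among the 22933 Ensembl genes of the deposited table. Total RNA had been sequenced from mouse embryonic stem cells with floxed Ezh2 alleles (Ezh2 fl/fl), grown on gelatin in medium with serum and leukaemia inhibitory factor. The untreated group held 3 libraries of cells not given tamoxifen, which the labels also call Ezh2 wild type. The tamoxifen group held 3 libraries of the same cells given 4-hydroxytamoxifen at 800 nM for 96 h, labelled Ezh2 KO, with RNA taken 4 days after treatment. Both groups carry the floxed alleles, the labels name no recombinase, and no group of cells without floxed alleles given the drug was analysed here.

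Polycomb repressive complex 2 (PRC2) places methyl groups on lysine 27 of histone H3 through its catalytic subunit Ezh2. In embryonic stem cells this mark covers the CpG-rich promoters of many developmental transcription factor genes, which stay silent or nearly so until a lineage is chosen. Factors that carry a homeodomain bind DNA through it. The genes of the families above pattern the brain, spinal cord, sense organs, face, limbs, heart and kidney. The comparison asks how their RNA differs after tamoxifen was given to delete Ezh2.

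Each library's whole reads were recovered from the deposited normalized values and came to between 2329198 and 5675376 per library. Ezh2 had values of 4165, 3620 and 3483 without and 2258, 2559 and 2609 with tamoxifen, so that its mean after tamoxifen was 65.9% of the untreated mean. Its log2 fold change was -0.60 ± 0.12 (SE, n = 3 per group) with limma adjusted p 0.195, and the exact permutation p (two-sided) was 0.1, which no split of 3 against 3 can go below. In reads per 1000000 recovered reads (RPM) Ezh2 stood at 180, 98.1 and 67.8 against 72.1, 124 and 102, so that on this scale the groups overlapped and the log2 fold change was -0.13 ± 0.40 (limma adjusted p 0.976). The lower Ezh2 level in the libraries labelled KO thus held in deposited values and not in RPM. These values count the whole gene and do not show which exons were removed. All 12 embryonic stem cell markers on a fixed list, Pou5f1, Sox2 and Nanog among them, reached a mean of 10 reads, with summed levels of 1304 to 2133 RPM without and 1560 to 2133 with tamoxifen. The labels do not say whether the replicates were separate cultures, so p-values measure only the spread between these libraries, which may be technical.

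Nearly all of the homeobox genes were close to silent in both groups. Their median total over the 6 libraries together was 5 reads, against 69 for all genes in the table. Per length, their median level was 0.0866 RPM per kilobase of exon, against 1.24 over the 20273 genes with a known exon length. Vax1, which patterns the ventral eye and forebrain, Dlx2, a regulator of forebrain interneurons, and Gsx2, a regulator of the ventral telencephalon, had 0 reads in all 6 libraries. A count of 0 over these 23466873 reads allows up to 0.128 RPM (3 counts, counting error only). A further 15 genes had 1 or 2 reads in all, 13 genes had a read in every library, and only Gsx1, En2 and Nkx6-2 reached a mean of 10 reads.

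**Figure D1:**
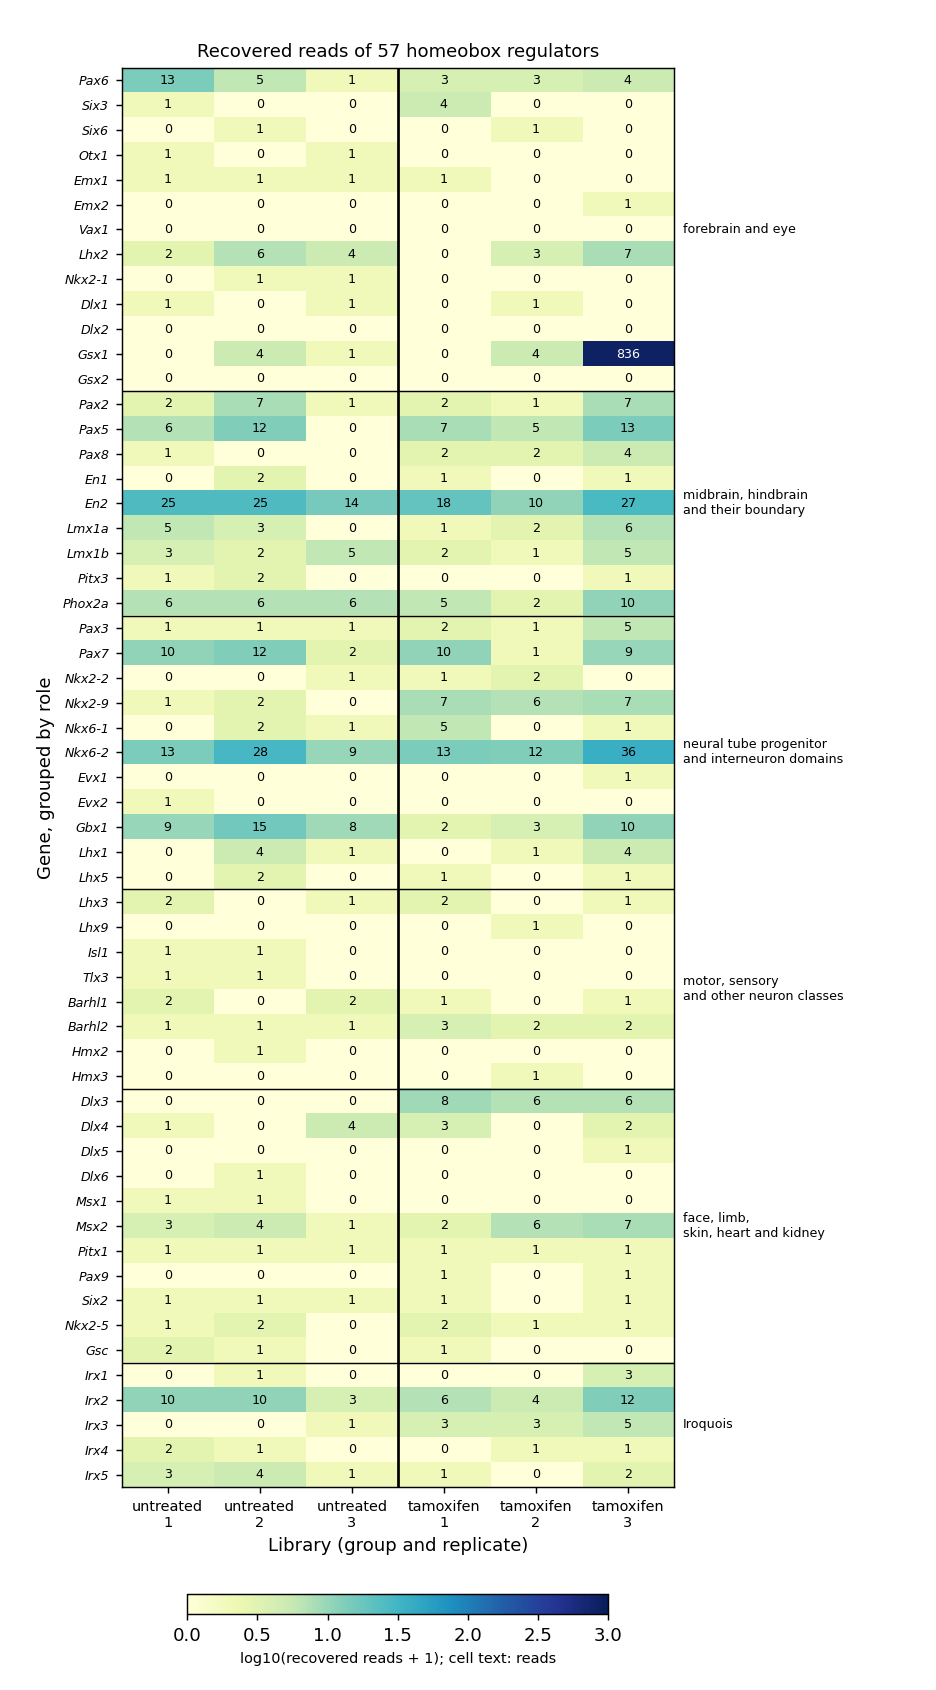
Recovered reads of each of the 57 genes (rows, grouped by role) in the 3 untreated and 3 tamoxifen libraries (columns); colour shows log10(reads + 1) and the number in each cell is the read count. Most cells hold 0 to 2 reads, En2 and Nkx6-2 hold 9 to 36 in every library, Dlx3 has reads in the tamoxifen libraries only, and Gsx1 has 836 reads in 1 library.

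The number of these genes with at least 1 read was broadly larger in deeper libraries. It was 35, 37 and 28 in untreated replicates 1 to 3 and 33, 29 and 38 in tamoxifen replicates 1 to 3, so the groups overlapped. The share was 49.1% to 66.7% per library, against 68.8% to 76.2% of all genes. Thinned to the total reads of the smallest library, the expected numbers were 27.1, 24.8 and 25.7 without and 27.1, 29.0 and 28.8 with tamoxifen, which meet at 27.1. With a minimum of 3 reads the numbers were 12, 15 and 8 without and 14, 12 and 21 with tamoxifen. Reads of 8 genes were found in untreated libraries only and of 7 in tamoxifen libraries only, each with at most 2 reads in all apart from Dlx3.

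Of the 57 genes, 36 had a mean deposited value of at least 10 and entered the test with 17391 others. The other 21 had between 0 and 43 reads in all. Entry went by deposited value, which 1 read can carry. Hmx2 and Hmx3 entered on 1 read each, and Pax5 stayed out with 43 reads. A gene passed at a Benjamini-Hochberg adjusted p under 0.05 from limma over all 17427 genes, and fold changes are differences of mean log2(value + 1), tamoxifen less untreated. Of the 36, 1 gene, Dlx3, was higher (0.126% of all genes tested were called higher) and 0 were lower (0.0689% of all genes). At an unadjusted p under 0.05 there were 2 higher (Dlx3 and Irx3) and 1 lower (Gbx1), or 8.33% of the 36, against 9.34% of all genes tested. The 36 had a median log2 fold change of -0.19, with 15 above and 21 below 0, and the median over all genes tested was -0.0037. When genes unread in 1 group were set to the fold change over a floor of 3 counts, and those with too few reads for this were dropped, the median was -0.15 over 30 genes. On RPM the median of the 36 was -0.07 and that of all genes tested 0.21. Over all 57 genes, the mean RPM after tamoxifen was higher in 29, lower in 25 and equal in 3.

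**Figure D2:**
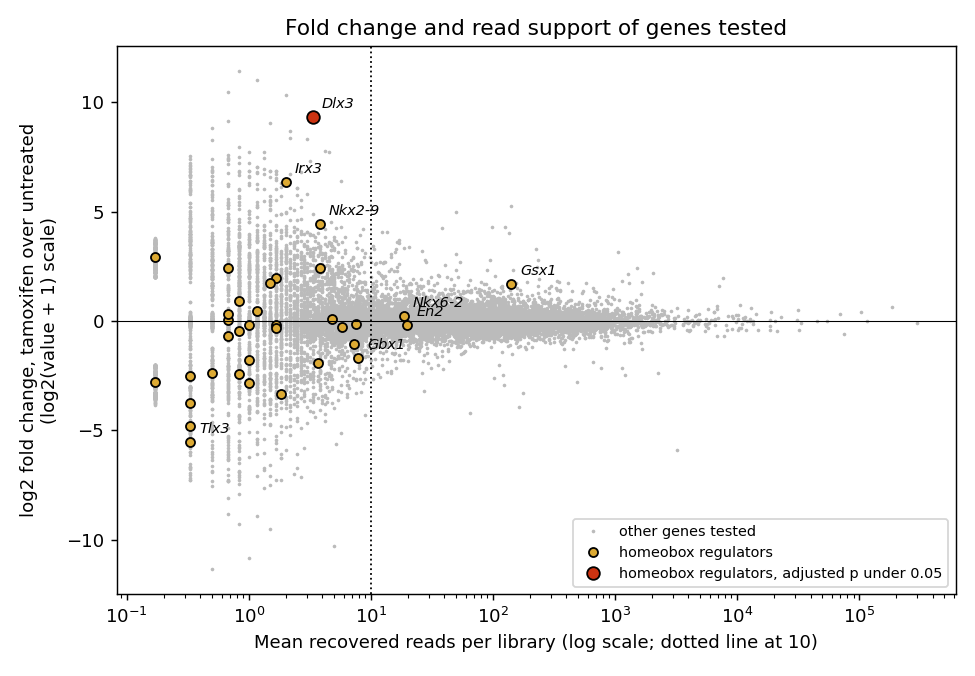
Log2 fold change on the log2(value + 1) scale against mean recovered reads per library (log axis) for the 17427 genes tested; filled circles are the 36 homeobox genes, with Dlx3, the only one called, in red. Of the 36, 33 lie left of the dotted line at 10 reads, where fold changes of all genes spread widely around 0.

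Dlx3 was the only gene of the set called higher. It encodes a distal-less factor needed in the placenta and in skin, hair and teeth. It had 0, 0 and 0 reads without and 8, 6 and 6 with tamoxifen, with deposited values of 731, 767 and 470 after tamoxifen. The groups did not overlap and each tamoxifen library contributed at least 6 reads. Over group totals its level after tamoxifen was 7.21-fold that of a floor of 3 counts over the untreated group. Only the untreated side is set at its limit there, and the counting error of the tamoxifen reads is left out. The fitted log2 difference of 9.33 ± 0.64 (limma adjusted p 0.00844) depends on the added 1 and is not a bound either. On RPM, with 0.5 added, it was 2.25 ± 0.39 (limma adjusted p 0.00815), or 2.03 above the median of all genes. The call was lost without tamoxifen replicate 1 (limma adjusted p 0.0919), 2 (0.0731) or 3 (0.0621), with log2 differences of 9.20 to 9.55, and on reads scaled by median-ratio size factors (2.87, limma adjusted p 0.0705). In bulk RNA, more cells that express a gene and more RNA per cell cannot be told apart.

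Dlx3 lies at chromosome 11, 95120119 to 95125296 on the plus strand (GRCm38), 15.2 kb from Dlx4, its partner in a gene pair. Dlx4 had 1, 0 and 4 reads without and 3, 0 and 2 with tamoxifen, so its groups overlapped (log2 fold change -0.32, limma adjusted p 0.993). The other Dlx genes, which pattern the jaw, limb and forebrain in linked pairs, were nearly unread. Dlx1 had 1 read in each of 3 libraries, Dlx5 and Dlx6 had 1 read each in all, and Dlx2 had none. None of these 5 genes had over 4 reads in any library.

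Summed markers of several other cell types were also higher in every tamoxifen than in every untreated library. All 12 primitive endoderm markers had fold changes above 0, with a median of 1.25 and summed levels of 442 to 792 RPM in the untreated and 1235 to 1721 in the tamoxifen libraries. Of 9 trophoblast markers tested, all 9 were above 0, with a median of 0.75 and summed levels of 53.9 to 104 against 133 to 156. The keratin genes Krt8 and Krt18 and Tfap2c gave most of the reads. Of the lineage factors among them, Hand1 had 0, 1 and 0 reads against 6, 8 and 10, and Gata3 had 2, 2 and 1 against 2, 5 and 11. Elf5 had 1, 0 and 0 against none, and Cdx2 had 2, 1 and 0 against 1, 1 and 3. Of 8 fibroblast or feeder markers tested 6 were above 0 (median 0.53, summed levels of 319 to 489 against 549 to 838), and Lum was at 0 reads in every library. Fn1 and Vim gave most of the reads of this list. Thy1 had 15, 10 and 4 reads against 7, 4 and 9, and Col3a1 had 1, 5 and 1 against 0, 0 and 2. Col1a1 had 2, 28 and 4 against 7, 24 and 44. Mesendoderm and mesoderm markers summed to 3.75 to 7.01 against 9.37 to 12.5 RPM, with a median of 0.02 and Gsc and Evx1 of the homeobox genes among them. Of 9 tested, 5 were above 0. T had 0, 2 and 2 reads against 6, 7 and 6, and Tbx6 had 6, 4 and 1 against 0, 1 and 5. Hand1 and Eomes are also on the trophoblast list and Foxa2 on the primitive endoderm list, so these lists are not separate. None of these 4 lists had a gene called by limma over all genes tested. An unadjusted p under 0.05 was found in 10, 4, 2 and 1, all higher, where 9.34% of all genes tested had one in either direction. The part of other cell types in the values of Dlx3 was not tested.

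A few other homeobox genes had groups that did not overlap. Among the 22 tested genes with at least 6 reads in all, deposited values of Dlx3, Nkx2-9, Irx3 and Barhl2 were higher in every tamoxifen than in every untreated library (8.64% of all such genes were), and those of Gbx1 were lower (7.97% of all such genes were). In RPM the counts were again 4 higher and 1 lower of 22, where 8.79% and 1.28% of all such genes were. Each of the 4 higher genes reached 6 reads only through its tamoxifen libraries, so these counts are a description and no excess over all genes is read from them. None of these apart from Dlx3 passed the test, and each had an exact two-sided permutation p of 0.1, the smallest possible. The lowest tamoxifen value of Barhl2 lay above the untreated ones only through its read count, as given below.

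Nkx2-9, which with Nkx2-2 specifies ventral progenitors of the neural tube, had 1, 2 and 0 reads without and 7, 6 and 7 with tamoxifen. Its deposited values were 487, 594 and 0 against 1507, 1599 and 1239; all 3 tamoxifen libraries lay above every untreated one. The log2 fold change was 4.44 ± 2.43 (limma adjusted p 0.630) and on RPM 1.79 ± 0.40 (limma adjusted p 0.0619). In deposited values it was 1.42 without untreated replicate 3 and 6.03 without untreated replicate 2. The value of untreated replicate 1 also solves to 551 reads, which would end the separation in reads and RPM but leaves the deposited values as they are. The gene lies at chromosome 12, 56611389 to 56613284 on the minus strand (GRCm38), between Nkx2-1, the lung, thyroid and ventral forebrain regulator 74.5 kb away, and Pax9, a regulator of teeth, thymus and vertebrae 78.5 kb away. Those neighbours had 0, 1 and 1 reads against 0, 0 and 0 (Nkx2-1) and 0, 0 and 0 against 1, 0 and 1 (Pax9), so the separation seen at Nkx2-9 was not seen at either. The value of Nkx2-1 in untreated replicate 3 also solves to 111 reads. Nkx2-2 itself had 0, 0 and 1 reads against 1, 2 and 0.

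Irx3, an Iroquois factor of the neural tube, heart and limb, had 0, 0 and 1 reads without and 3, 3 and 5 with tamoxifen. Values were 0, 0 and 196 against 406, 566 and 468, so that the fitted difference was 6.36 ± 2.08 on the log2 scale (limma adjusted p 0.457). It was called only when untreated replicate 3, the 1 untreated library with a read, was left out (8.90, limma adjusted p 0.0198). The value of that library also solves to 221 reads, and so does that of Irx5 there. The antisense gene Irx3os shares exon sequence with it on the opposite strand and was not analysed here, and the strand setting of the counting is not stated. Irx5, which lies in the same Iroquois cluster, stood the other way, with 3, 4 and 1 reads without and 1, 0 and 2 with tamoxifen (log2 fold change -3.36, limma adjusted p 0.667). Irx2 had 10, 10 and 3 reads against 6, 4 and 12 (-0.13 ± 0.26, limma adjusted p 0.882), and Irx1 and Irx4 had at most 3 reads in any library.

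Barhl2, a factor of retinal and spinal neurons, rested on 1 read in each untreated library and on 3, 2 and 2 in the tamoxifen libraries. Its values of 9.73 in each untreated library stood against 95.1, 65.8 and 10.2 (log2 fold change 1.95 ± 1.02, limma adjusted p 0.608). The 10.2 and the 9.73 hold the same normalized level m in the formula given under processing and differ only through the reads k. In m the lowest tamoxifen library thus tied with the untreated ones. Pax8, a regulator of thyroid and kidney that was too low to be tested, had 1, 0 and 0 reads against 2, 2 and 4, and its groups did not overlap either. Its deposited values above 0, of 0.885 to 0.949, also share the same m and differ only through k. An exon of the predicted gene Gm13415 overlaps it on the opposite strand.

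To show the CpG content for which Polycomb target promoters are known, the 250 bases before the start site are printed for Nkx2-9, Barhl2 and Pax8, whose groups did not overlap, and for Gsx1, nearly all of whose reads came from 1 library. They run 5′ to 3′ on the gene's strand, from RefSeq on GRCm38.p6, with every CG dinucleotide in capitals. The windows are chr12:56613285-56613534 (minus strand), chr5:106458167-106458416 (minus), chr2:24475600-24475849 (minus) and chr5:147188446-147188695 (plus).
Nkx2-9: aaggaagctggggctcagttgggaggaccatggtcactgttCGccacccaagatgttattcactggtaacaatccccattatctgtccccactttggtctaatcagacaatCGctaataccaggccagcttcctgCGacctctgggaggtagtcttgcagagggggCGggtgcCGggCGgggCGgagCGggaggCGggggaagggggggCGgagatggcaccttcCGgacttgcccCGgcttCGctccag
Barhl2: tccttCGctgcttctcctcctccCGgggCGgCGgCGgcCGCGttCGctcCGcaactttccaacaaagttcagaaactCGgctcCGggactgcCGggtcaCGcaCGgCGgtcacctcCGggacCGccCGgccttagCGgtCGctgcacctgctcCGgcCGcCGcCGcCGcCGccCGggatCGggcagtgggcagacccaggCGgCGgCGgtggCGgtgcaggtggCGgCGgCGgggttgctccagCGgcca
Pax8: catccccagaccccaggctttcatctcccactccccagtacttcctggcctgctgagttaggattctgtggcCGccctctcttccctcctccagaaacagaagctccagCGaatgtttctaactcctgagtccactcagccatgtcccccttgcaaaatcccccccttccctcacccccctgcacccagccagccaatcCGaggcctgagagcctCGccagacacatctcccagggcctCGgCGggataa
Gsx1: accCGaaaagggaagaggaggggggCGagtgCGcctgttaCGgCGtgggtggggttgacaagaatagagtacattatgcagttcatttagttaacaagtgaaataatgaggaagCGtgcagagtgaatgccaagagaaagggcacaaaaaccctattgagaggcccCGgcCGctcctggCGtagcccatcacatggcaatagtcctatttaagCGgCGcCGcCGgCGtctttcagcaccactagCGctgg

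The 4 windows hold 13, 36, 6 and 15 CG dinucleotides. Over the 45 of 57 genes matched to a RefSeq promoter the median was 16, from 1 for Hmx2 to 36 for Barhl2, against a median of 11 over 15383 genes of the table. By a common rule for CpG-rich sequence (GC of at least 50% and a ratio of observed to expected CG of at least 0.6), 26 of the 45 windows were CpG-rich (57.8%), against 46.1% of all. Barhl2 and Gsx1 met that rule, while Nkx2-9 (ratio 0.558) and Pax8 (0.314) did not. Irx3, whose groups also separated and whose window is not printed, met it (ratio 0.79). Members with separated groups were found on both sides of the rule, though the separations of Barhl2 and Pax8 rested on k. No link between CpG content and separation is read from so few genes. CG is read the same on both strands. Promoters of Dlx3, Gbx1 and 10 others of the 57 were not matched, and no binding or histone data were analysed here.

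Gbx1, which acts in spinal interneurons and the basal forebrain, was the member whose groups separated in the other direction. It had 9, 15 and 8 reads without and 2, 3 and 10 with tamoxifen, or 2.34, 2.64 and 3.0 against 0.521, 1.29 and 1.96 RPM. Every untreated library lay above every tamoxifen library on both scales. The log2 fold change was -1.71 ± 0.53 (95% interval -2.99 to -0.43, limma adjusted p 0.433) and -0.93 ± 0.44 on RPM (limma adjusted p 0.673).

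**Figure D3:**
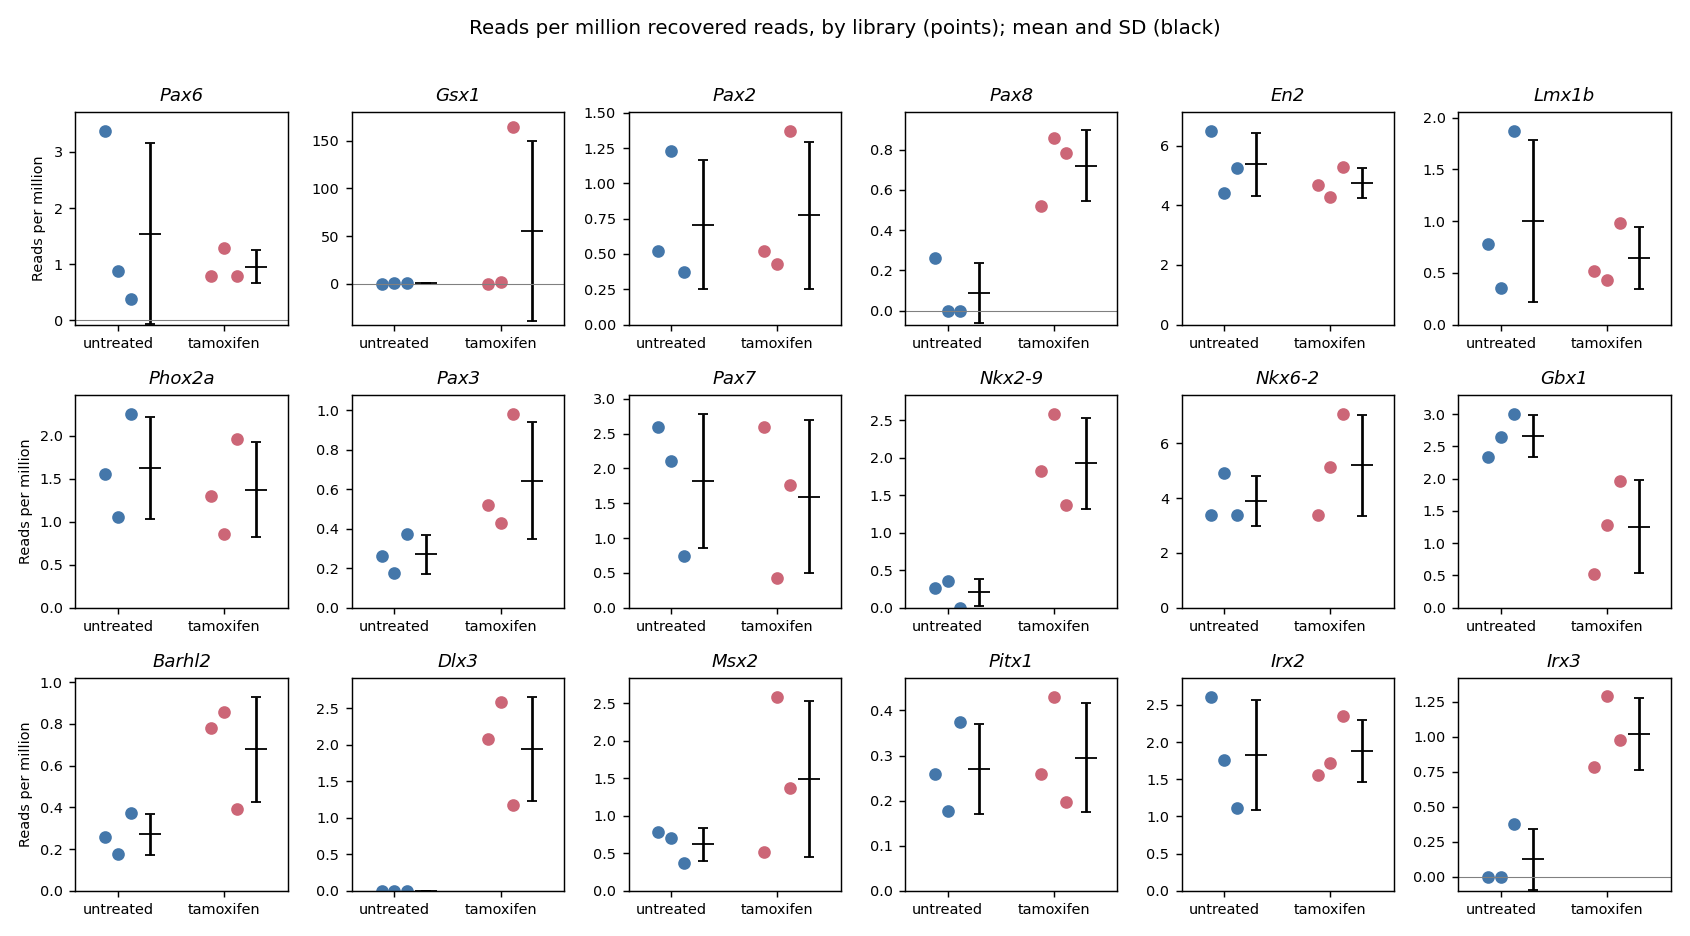
RPM of 18 homeobox genes in each library (blue untreated, red tamoxifen), with the mean and SD of each group in black; each panel has its own linear axis. Dlx3, Nkx2-9, Irx3, Barhl2, Pax8 and Pax3 are higher in all 3 tamoxifen libraries, Gbx1 is lower in all 3, and the 164 RPM of Gsx1 come from 1 tamoxifen library. Of all genes tested with at least 6 reads, 8.79% were higher and 1.28% lower in this way. For Pax3 the gap between groups is 1 read at 0.429 against 1 read at 0.375 RPM, set by library depth. For Barhl2 it is 2 reads at 0.392 against 1 read at 0.375.

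The 2 genes of the set that were read best in every library overlapped between groups. En2, an engrailed factor of the midbrain and cerebellum, had 25, 25 and 14 reads without and 18, 10 and 27 with tamoxifen. Its values of 961, 650 and 958 against 824, 714 and 709 overlapped, and its log2 fold change of -0.17 had a 95% interval from -0.65 to 0.30 (limma adjusted p 0.774). Nkx6-2, a factor of ventral neural tube progenitors and oligodendrocytes, had 13, 28 and 9 reads against 13, 12 and 36. Its values of 928, 1009 and 1040 against 1025, 1169 and 1243 overlapped through tamoxifen replicate 1, with a log2 fold change of 0.20 and an interval from -0.10 to 0.51 (limma adjusted p 0.682). On RPM the intervals were wider, from -1.04 to 0.74 for En2 and from -0.58 to 1.26 for Nkx6-2. The value of Nkx6-2 in tamoxifen replicate 2 also solves to 14532 reads. The exons of Nkx6-2 overlap those of Inpp5a on the opposite strand.

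Gsx1, a factor of the hypothalamus and dorsal interneurons, had 836 reads in tamoxifen replicate 3 and 0 to 4 in each of the other 5 libraries. This 1 value made up 80.2% of all reads of the 57 genes in that library. The untreated libraries had 0, 4 and 1 reads and tamoxifen replicates 1 and 2 had 0 and 4, so the groups overlapped. Its log2 difference of 1.68 ± 4.14 (limma adjusted p 0.914) became -1.09 without tamoxifen replicate 3 (limma adjusted p 0.948). The neighbouring genes Pdx1 and Cdx2 had 2 and 3 reads in the same library, and Urad had 0. Over the table, 14 genes had at least 100 reads in 1 library and at most 5 in each of the others, of which 6 had them in tamoxifen replicate 3 and 3 each in untreated replicates 1 and 2. That number was also 14 with the lowest read count taken wherever a value had several solutions, and 317 with the highest, so it depends on that choice. The Gsx1 values had 1 solution each. All summed levels below are therefore given without Gsx1.

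The reads of the 56 genes other than Gsx1 came to 35.1, 30.0 and 27.7 RPM without and 31.8, 35.6 and 40.6 with tamoxifen, which overlap. The 12 forebrain and eye genes left held 4.93, 2.47 and 3.37 RPM against 2.08, 3.43 and 2.35. Pax6, the regulator of eye and cortex, had the most reads, with 13, 5 and 1 reads without and 3, 3 and 4 with tamoxifen. Lhx2, which acts in cortex, eye and limb, had 2, 6 and 4 against 0, 3 and 7, and Six3 had 1, 0 and 0 against 4, 0 and 0. None of these was called, and the groups of each overlapped.

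The 9 genes of midbrain, hindbrain and their boundary held 12.7, 10.4 and 9.74 RPM without and 9.89, 9.87 and 14.5 with tamoxifen. En2 had the most reads, followed by Pax5, a boundary and B cell factor, with 6, 12 and 0 reads against 7, 5 and 13. Phox2a, a regulator of noradrenergic and cranial motor neurons, had 6, 6 and 6 reads against 5, 2 and 10 (log2 fold change -0.29 ± 0.26, limma adjusted p 0.766), and its exons overlap those of Inppl1 on the opposite strand. Its value in tamoxifen replicate 2 also solves to 842 reads. Pax2, a kidney and boundary factor, had 2, 7 and 1 against 2, 1 and 7. Lmx1b, which acts in serotonergic neurons and the dorsal limb, had 3, 2 and 5 against 2, 1 and 5. The groups overlapped for each of these 4 genes.

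The 11 genes of neural tube progenitors and interneurons held 9.09, 11.6 and 8.62 RPM without and 10.7, 11.2 and 14.5 with tamoxifen. Besides Nkx6-2, Nkx2-9 and Gbx1, Pax7, a dorsal neural tube and muscle stem cell factor, had 10, 12 and 2 reads against 10, 1 and 9 (log2 fold change -1.04 ± 1.38, limma adjusted p 0.807). Pax3, its relative in neural crest and muscle, had 1, 1 and 1 against 2, 1 and 5, which did not overlap in RPM but did in deposited values. The gap in RPM was set by library depth: 1 read stood at 0.429 in tamoxifen replicate 2 and at 0.375 in untreated replicate 3. Nkx6-1, a motor neuron and beta cell factor, had 5 reads in tamoxifen replicate 1 and 0 to 2 elsewhere. Evx1 and Evx2, which lie beside the Hox clusters, had 1 read each in all.

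The 8 genes of motor, sensory and other neuron classes had the fewest reads of any role group, at 1.82, 0.705 and 1.5 RPM without and 1.56, 1.72 and 0.784 with tamoxifen. Isl1 and Tlx3, regulators of motor and sensory neurons, each had 1, 1 and 0 reads without tamoxifen and none with it. The fitted change of -5.55 for Tlx3 rested on these 2 reads. The value of Tlx3 in untreated replicate 2 also solves to 31 reads. Over the 57 genes, a single read carried a deposited value anywhere from 0.885 to 532.

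The 11 genes of face, limb, skin, heart and kidney held 2.60, 1.94 and 2.62 RPM without and 4.95, 6.01 and 3.92 with tamoxifen. Without Dlx3 the tamoxifen values were 2.86, 3.43 and 2.74, the lowest of which lay close to the highest untreated one. Msx2, a target of bone morphogenetic protein signalling in skull and tooth, had 3, 4 and 1 reads against 2, 6 and 7 (log2 fold change 2.40 ± 1.63, limma adjusted p 0.712), a difference that was 0.53 without untreated replicate 3 and 3.37 without untreated replicate 1. Its relative Msx1 had 1, 1 and 0 against none, and Pitx1, the hindlimb and pituitary factor, had 1 read in each of the 6 libraries. The value of Msx1 in untreated replicate 1 also solves to 221 reads. Nkx2-5, the cardiac factor, had 1, 2 and 0 against 2, 1 and 1, and Gsc, the organizer gene goosecoid, had 2, 1 and 0 against 1, 0 and 0. The values of Nkx2-5 in untreated replicate 1 and tamoxifen replicate 2 also solve to 31 reads each. The 5 Iroquois genes held 3.90, 2.82 and 1.87 against 2.60, 3.43 and 4.51 RPM.

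**Figure D4:**
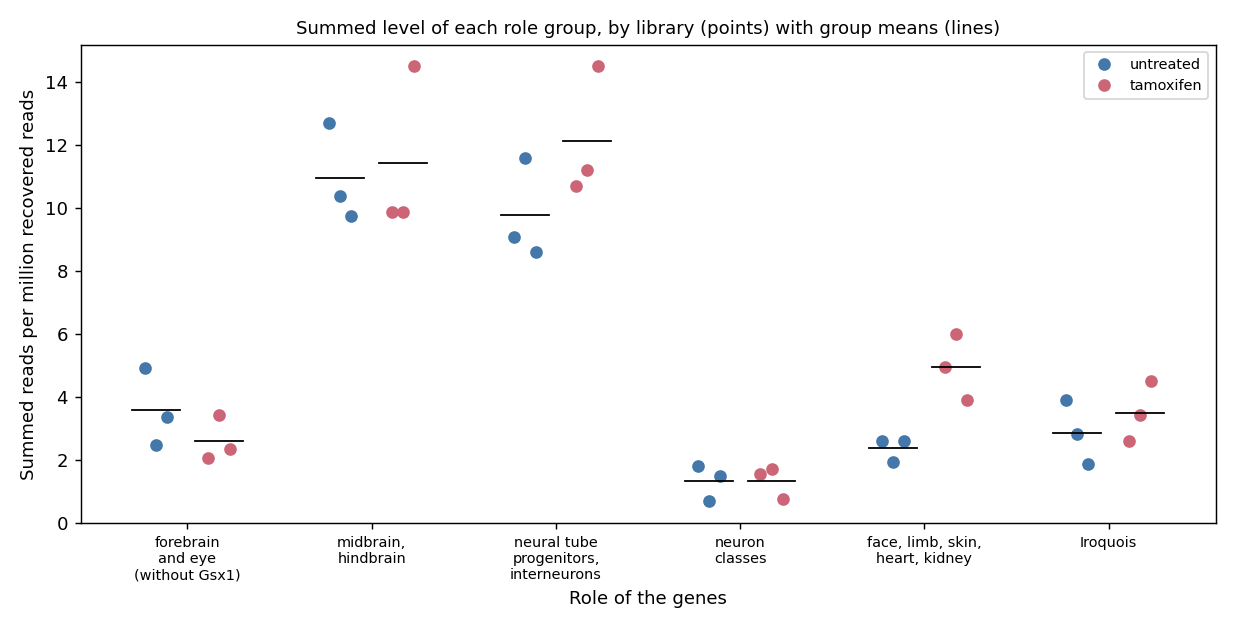
Summed RPM of each role group in each library (points, blue untreated and red tamoxifen), with group means as lines; Gsx1 is left out of the forebrain and eye group. The groups overlap in every role group except face, limb, skin, heart and kidney, where 1.94 to 2.62 stand against 3.92 to 6.01 and Dlx3 makes up most of the difference.

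Other homeobox genes, from a list that shares none with the 57, were not called either. Of the 58 found, 32 were tested and 0 were called by limma in either direction, with a median log2 fold change of -0.14, and 8 had 0 reads in every library. At an unadjusted p under 0.05 there were 1 higher and 1 lower. For this and the lists below, the share of all genes tested at that p was 9.34%. Otx2, a factor of the epiblast and forebrain, had 48, 43 and 15 reads without and 56, 33 and 85 with tamoxifen (0.45 ± 0.20, limma adjusted p 0.538). Cdx1, a caudal-type factor, stood at 1.07 ± 0.53 (limma adjusted p 0.592). Of the 38 Hox genes found, 22 were tested and 0 called by limma (1 at an unadjusted p under 0.05, higher), with a median of -0.61, and 3 reached a mean of 10 reads. Neural progenitor and neuron markers, which would accompany many of these factors in tissue, had 0 of 14 tested genes called by limma and a median of 0.14. At an unadjusted p under 0.05 there were 3 of them, 1 higher and 2 lower. Pax6, one of the 57 genes, is on this list. Stmn2, a neuronal microtubule regulator, had 334, 327 and 101 reads against 159, 169 and 299 (-0.47 ± 0.11, limma adjusted p 0.301), and Nes, which encodes nestin, had 76, 71 and 29 against 58, 38 and 98 (0.16 ± 0.22, limma adjusted p 0.819). The 12 PRC2 genes, Ezh2 included, had 0 called by limma (3 at an unadjusted p under 0.05, 1 higher and 2 lower) and a median of -0.14. Aebp2 stood at 0.65 ± 0.19 (limma adjusted p 0.407) and Ezh1 at -0.64 ± 0.24 (limma adjusted p 0.509). On RPM these were 0.68 (limma adjusted p 0.797) and -0.13 (0.978), and Stmn2 was -0.03 (0.995). The RPM medians were 0.05 (other homeobox), -0.15 (Hox), 0.11 (neural) and 0.18 (PRC2), against 0.21 over all genes tested.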

How the data were processed

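Per the submitters' processing notes, TopHat2, bedtools and DESeq2 were used on build mm9, without versions; per the labels' protocols, RNA was depleted of ribosomal RNA and made into directional libraries. The deposited values are a normalized signal by the authors for 22933 Ensembl genes and 6 libraries; the annotation and strand setting are not given in the sources used here. All 100305 nonzero values fit 9.73 × k × (m + 0.1) / (k + 0.1), with k and m whole numbers, to within 5.11e-15 of the value. Here k was taken as the gene's reads and m as its normalized level, a reading that no source used here states; a deposited value follows m and hardly depends on k. Where several k solved a value (1189 values), the one nearest the reads of the gene's other libraries at that depth was taken; this applied to 12 of 200 values above 0 of the homeobox genes, where the lower of 2 solutions was taken each time (the other was 11 to 14532 reads).

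The test was limma 3.58.1 (R 4.3.3) with a mean-variance trend on log2(value + 1); it took in the 17427 genes whose mean value reached 10. Both groups held 3 libraries. The read solver returned 100.0% of the reads of 9000 values simulated with the same formula, for genes read in all 6 libraries. Such values cannot show whether k is a read count. The limma fit was also run on simulated counts, with results not given here. Symbols, exons and coordinates were looked up by Ensembl identifier in GENCODE vM21 (GRCm38), which held 20273 of the genes. RPM are reads per 1000000 recovered reads of a library and were tested on log2(RPM + 0.5). The intervals given are those of the limma fit and rest on the spread between libraries. Floors cover counting error only, and the reads carry no molecular identifiers. Python 3.11.15 with numpy 2.4.6, pandas 2.3.3, scipy 1.17.1 and matplotlib 3.10.9 was used for the rest. The genes and lists were chosen with earlier results of these data known. Named were Ezh2 and the homeobox genes that were called, had a mean of at least 10 reads, had a read in all 6 libraries, had 0 reads in 1 group with more than 3 in the other, or had groups that did not overlap on at least 6 reads, plus up to 4 genes of smallest p with at least 10 reads from each list; all other genes named were chosen after their values were seen. Alternatives covered the pseudocount, filters, scaling, the replicate block and leaving out each library.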

Additional observations from a re-analysis of the deposited data

How the results depend on the processing

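Over 14 alternatives, 0 of the homeobox genes were called lower by limma (1 at an unadjusted p under 0.05 in the reported fit) and Ezh2 was not called, with a log2 fold change of -0.60 that was -0.40 by size factors and -0.13 on RPM. The number called higher was 1 except for 0 over genes with a mean of at least 10 reads (which leaves 3 homeobox genes), with median-ratio size factors on reads and with the replicate number as a block, and it ranged from 0 to 2 with 1 library left out. Dlx3 was not tested in the first of these fits and lost the call in the others, with a log2 fold change of 2.87 by size factors (limma adjusted p 0.0705) and 9.33 with the replicate block (0.299), and 9.20 to 9.55 without a tamoxifen library. The replicate numbers were not found to pair the libraries: deviations of same-numbered libraries correlated at -0.035, 0.020 and 0.025. Genes called over all tested (34) became 14 over genes with a mean of at least 10 reads, 5 with size factors, 52 with no filter, 52 with a pseudocount of 10, 16 on RPM and 0 with the replicate block (limma, 1393 at an unadjusted p under 0.05), and 32 to 56 with 1 library left out, 56 being without untreated replicate 2. The median log2 fold change of the homeobox genes (-0.19) became 0.20 over the 3 with a mean of at least 10 reads, -0.37 with quantile normalization and -0.07 on RPM, and -0.91 (without tamoxifen replicate 1) to -0.05 with 1 library left out; it was -0.88 without untreated replicate 3. Some fold changes turned sign. Pax6 (0.09) became -0.39 by size factors, -0.37 with a pseudocount of 10, -1.0 with quantile normalization, -0.22 on RPM and -1.59 to 1.26 with 1 library left out. Irx2 became 0.07 and Pitx1 0.04 on RPM. With 1 library left out, Irx2 ranged from -0.33 to 0.08, Pitx1 from -1.91 to 1.43, Pax7 from -1.93 to 0.28 and Gsx1 from -1.47 to 5.67. Numbers of homeobox genes with a read, of 35, 37, 28, 33, 29 and 38, became 12, 15, 8, 14, 12 and 21 with a minimum of 3 reads, and 27.1, 24.8 and 28.8 in untreated replicates 1 and 2 and tamoxifen replicate 3 at an equal total of recovered reads. The cause of these differences was not tested. Depth limits every value here: 54 of the 57 genes had a mean below 10 reads.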
